A study of Homo sapiens with 8 samples.

Results

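The genes described here are the collagen crosslinking genes and CREB3L1: CREB3L1, SERPINH1, the lysyl hydroxylase genes PLOD1, PLOD2 and PLOD3, and the lysyl oxidase genes LOX, LOXL1, LOXL2, LOXL3 and LOXL4. They were taken by gene name from the 60282 genes listed in the count table, and all 10 were found. They were selected on their levels in treated against untreated cells, with and without 1 vehicle library. Their own changes and calls are therefore given as a description, without p-values. RNA was measured in SK-UT-1, a long-established human line that was derived from a leiomyosarcoma of the uterus, a malignant smooth muscle tumor. The cells were exposed to 5 µM TP-472 for 48 h or to DMSO as vehicle, with 4 libraries in each group. TP-472 is labelled as an inhibitor of BRD9/7, bromodomain proteins of SWI/SNF chromatin remodelling complexes. All libraries come from this single line, cultured in EMEM with fetal bovine serum, and the labels do not say whether the replicates were separate cultures, although the study's methods speak in general of biological replicates.

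Fibrillar collagen is modified in the endoplasmic reticulum before it is secreted and crosslinked outside the cell. Lysyl hydroxylases add hydroxyl groups to lysines of procollagen, the chaperone HSP47 (encoded by SERPINH1) binds and stabilizes the triple helix, and lysyl oxidases, which need copper, oxidize lysines in the matrix so that neighbouring chains become covalently joined. CREB3L1, also called OASIS, is a transcription factor anchored in the membrane of the endoplasmic reticulum. It is released by cleavage in the Golgi and is known to activate type I collagen genes in bone and other connective tissue cells.

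The total estimated count ran from 32574716 to 36634184 in the vehicle libraries, with a median of 35420723, and from 36246466 to 38545695 in the TP-472 libraries. Levels are given as CPM, the count scaled for library size and composition by TMM. Vehicle replicate 3 stood apart from its group. Its median Spearman correlation with the other vehicle libraries was 0.914, while that of the remaining vehicle libraries was 0.988 to 0.989. Of 4 equal groups of genes by GC content, the one with the highest took 34.5% of its counts, compared with 24.2% to 26.4% in the other vehicle libraries and 23.0% to 29.2% in the TP-472 libraries. For this reason the results are given with and without this library.

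The defining markers of smooth muscle were present in part. ACTA2 was at 145.7 to 176.8 CPM in vehicle and at 104.7 to 112.3 CPM with TP-472, CALD1 at 178.4 to 211.3 CPM in vehicle, and DES at 3.01 to 3.49 CPM in vehicle and 0.396 to 0.777 CPM with TP-472. Of the 9 markers 7 were tested and 3 were called, all lower in edgeR, where 14.9% of all genes tested were called lower: DES (5.14-fold, adjusted p = 0.000189), LMOD1 (3.58-fold, adjusted p = 0.00401) and TAGLN (1.59-fold, adjusted p = 0.00397), whose call was lost once each library's trend with GC content was removed (log2 change −0.45). ACTA2 was also called lower when vehicle replicate 3 was left out (log2 change −0.59, adjusted p = 0.000138). DES and LMOD1 were below 1 CPM in all TP-472 libraries. They passed the filter of more than 1 CPM in at least 4 libraries only through vehicle, so nothing is read from their calls. MYH11 and MYOCD were below 1 CPM in all 8 libraries and were not tested. MYH11 did not exceed 0.0281 CPM in vehicle and was at 0.194 to 0.264 CPM with TP-472. The summed level of the 9 smooth muscle markers was 439.2, 479.4, 523.8 and 480.8 CPM in vehicle and 379.9, 377.9, 373.1 and 370.8 CPM with TP-472, with CALD1 and ACTA2 as the most abundant. The part of these differences in the results below was not tested. Among markers of other cells, CD3E had no count in any library, PTPRC did not exceed 0.0282 CPM, all 3 endothelial markers and the epithelial markers EPCAM and CDH1 were below 1 CPM, and the fibroblast markers DCN and LUM did not exceed 0.0277 CPM. The summed fibroblast markers, of which THY1 was the most abundant, were at 48.55 to 68.06 CPM in vehicle and 63.4 to 73.76 CPM with TP-472. CD68, a leukocyte marker above 1 CPM, was at 6.68 to 7.90 CPM and 8.93 to 12.2 CPM, and the 5 epithelial markers summed to 17.51 to 23.08 CPM and 20.39 to 26.8 CPM. Of these, KRT18 was 2.11-fold higher (edgeR adjusted p = 0.000726) and KRT19 1.8-fold lower (adjusted p = 0.0151). With the GC trend removed KRT19 was no longer called (log2 change −0.48), and KRT8 (0.70) and CD68 (0.62) were called higher.

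To show the sequence in front of genes whose estimates had opposite signs, the RefSeq promoters (GRCh38.p14, from 250 bases before to 50 after the annotated start) of CREB3L1, SERPINH1, LOX and PLOD2 were read. Of the 10 genes, 9 matched the promoter table. The runs below read 5′ to 3′ along the strand of the gene and stop where an exon of the gene begins in GENCODE release 29, except that for SERPINH1 only 29 bases around 1 match are shown. The CREB3L1 run (chr11:46294909-46295125, plus strand) and the PLOD2 run (chr3:146161185-146161434, minus strand) lie inside the longest extent of these genes in GENCODE release 29, which also lists starts further upstream. The SERPINH1 run is chr11:75562169-75562197 on the plus strand and lies in the first exon of transcripts that GENCODE starts further upstream. The LOX run is chr5:122078361-122078509 on the minus strand. Capitals mark ACGTG, on either strand, in LOX and PLOD2, and a heat shock element in SERPINH1, that is, TTC, GAA and TTC with any 2 bases between them.
CREB3L1: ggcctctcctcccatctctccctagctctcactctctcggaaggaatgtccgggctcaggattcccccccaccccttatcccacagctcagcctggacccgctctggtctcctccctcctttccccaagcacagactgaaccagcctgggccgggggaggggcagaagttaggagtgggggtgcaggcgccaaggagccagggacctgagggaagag
SERPINH1: ttccaactTTCCAGAAGTTTCtcgggacg
LOX: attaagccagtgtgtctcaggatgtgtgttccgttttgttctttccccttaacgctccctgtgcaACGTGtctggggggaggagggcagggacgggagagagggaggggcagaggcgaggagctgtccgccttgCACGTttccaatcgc
PLOD2: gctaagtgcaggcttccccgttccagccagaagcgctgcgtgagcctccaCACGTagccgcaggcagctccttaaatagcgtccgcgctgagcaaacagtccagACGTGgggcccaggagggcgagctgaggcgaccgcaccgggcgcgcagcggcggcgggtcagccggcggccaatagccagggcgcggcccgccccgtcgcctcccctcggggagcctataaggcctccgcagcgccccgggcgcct

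The letters ACGTG belong to the core of sites that hypoxia-inducible factors can bind, and the heat shock element to sites of heat shock factors. Both were added to the search after the sequences had been seen. ACGTG, on either strand, was in the window of 3 of the 9 genes, LOX with 4 matches, of which the run shown holds 2, PLOD2 with 2 and SERPINH1 with 1 after the start, and in 21.6% of all 27305 promoters of this length. The heat shock element, searched on both strands, was in the window of SERPINH1, as TTCCAGAAGTTTC from 76 to 64 bases before the RefSeq start, and in 0.487% of all promoters. CREB proteins and their relatives can bind TGACGTCA, which was in 1.98% of all promoters. A variant of this site, TGACGTG, was in 2.0%, and its longer form TGACGTGG in 0.795%. None of these was in the 9 windows. A match to the variant also holds a match to the shorter motif of the hypoxia sites, and the longer form also matches CCACG on the other strand. By itself, CCACG was found in PLOD1, PLOD2, PLOD3, LOXL3 and SERPINH1 (37.9% of all promoters), CCAAT in LOX and PLOD2 (35.7%), and TATAAA in none (12.0%). A match of letters is not a binding site, and the lack of one says only that these letters are not in the window.

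Per kilobase of exon, the 10 genes covered a wide range of levels. In vehicle, PLOD1 stood at 60.2 ± 13.1 CPM per kb (SD, n = 4) and SERPINH1 at 57.6 ± 11.1, followed by CREB3L1 at 14.6 ± 16.4, LOXL2 at 12.8 ± 5.98 and PLOD3 at 8.53 ± 2.62. LOXL1 (2.19 ± 1.67), PLOD2 (0.949 ± 0.323), LOXL3 (0.488 ± 0.0725), LOXL4 (0.288 ± 0.114) and LOX (0.0753 ± 0.01) were lower. Thus lysyl hydroxylase 1 and the collagen chaperone led the list, and LOX, the founding member of the oxidase family, came last. PLOD1 and SERPINH1 overlapped between libraries, as did CREB3L1 with LOXL2, LOXL2 with PLOD3, and PLOD2 with LOXL3. With TP-472, PLOD1 and SERPINH1 remained in front at 34.4 ± 2.26 and 28.9 ± 2.47 CPM per kb. CREB3L1 came sixth at 1.37 ± 0.283 CPM per kb, overlapping PLOD2 at 1.44 ± 0.109, and LOXL4 came last at 0.0947 ± 0.0506, below LOX at 0.197 ± 0.03. With the longest transcript in place of all exons, the order in vehicle was the same. The place of CREB3L1 in vehicle rested on replicate 3. In a comparison added after the data were seen, CREB3L1 came in place 5 without that library, at 6.55 ± 3.88 CPM per kb (SD, n = 3), after LOXL2 at 9.86 ± 1.77 and PLOD3 at 7.27 ± 0.83. The other 7 genes kept their places.

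**Figure D1:**
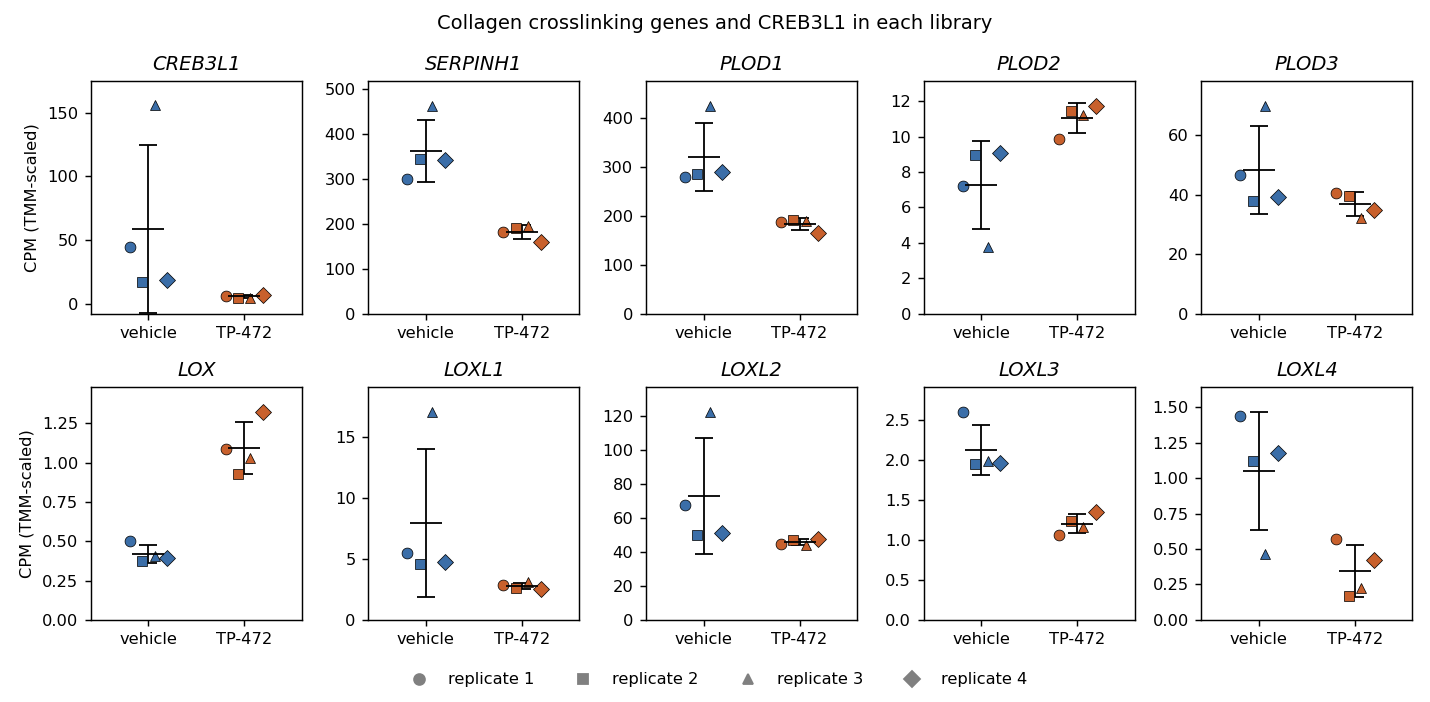
Level of each gene in every library, in TMM-scaled CPM on a linear axis of its own for each gene. Symbols give the replicate number, which does not pair libraries, and black bars the mean and SD of 4 libraries. Vehicle replicate 3 (triangle) is the highest vehicle library for 6 genes, CREB3L1 among them at 156.2 CPM, and the lowest for PLOD2 and LOXL4.

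CREB3L1 (ENSG00000157613.11, chromosome 11, 46277661 to 46321422, plus strand, GRCh38) showed the widest difference of the 10 genes. Its level was 44.5, 16.7, 156 and 18.1 CPM in vehicle replicates 1 to 4 and 5.82, 4.68, 4.61 and 7.03 CPM with TP-472. All 4 treated libraries were below all vehicle libraries, although the vehicle libraries differed among themselves far more than the treated ones, with a coefficient of variation of 112% against 20.6%. The mean fell from 58.9 ± 66.2 to 5.53 ± 1.14 CPM (SD, n = 4), and the log2 change of the model was −3.41 ± 0.72 (SE), that is, 10.6-fold lower. Vehicle replicate 3 lay 5.91-fold above the mean of the other vehicle libraries. Without it the log2 change was −2.25 ± 0.33 and the level 4.77-fold lower. With limma-voom and quality weights, which lower the weight of libraries that stand apart, the log2 change was −1.84. When genes were ordered from the lowest log2 change, CREB3L1 came in place 3 of 14073 with all libraries and in place 36 without vehicle replicate 3. In bulk RNA, fewer cells expressing a gene and less RNA per cell cannot be told apart, and this holds for all levels given here.

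The genes with a profile nearest to that of CREB3L1 were sought among the 11077 genes whose mean level was 5 CPM or more, with the root mean square difference of log2 CPM over the 8 libraries after each gene was centred on its mean. The nearest were HSPG2, which encodes the basement membrane proteoglycan perlecan (0.216), COL5A1, the alpha 1 chain of type V collagen (0.290), RSPO4, a secreted enhancer of Wnt signalling (0.383), and MYRF, a membrane-bound transcription factor known from myelin-forming cells (0.425). HSPG2 was at 71.9, 31.3, 253 and 31.2 CPM in vehicle and at 13.4, 11.8, 9.46 and 13.7 CPM with TP-472. Since they were picked for likeness over the same libraries, these genes share the order of CREB3L1, with vehicle replicate 3 highest and vehicle replicate 1 next, by construction. Their transcripts were rich in GC, from 60.1% for RSPO4 to 64.5% for HSPG2, against 61.1% for CREB3L1. Without vehicle replicate 3 the nearest were PDZD2, MXRA5, HSPG2, COL5A1 and GMDS-DT, so that HSPG2 and COL5A1 were shared, and with each profile scaled to unit variance none was shared. RSPO4 was at 5.46, 2.07, 28.1 and 2.42 CPM in vehicle and at 0.88 to 1.43 CPM with TP-472. Its mean reached 5 CPM only through vehicle replicate 3, and its place went from 3 to 36 without that library.

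**Figure D2:**
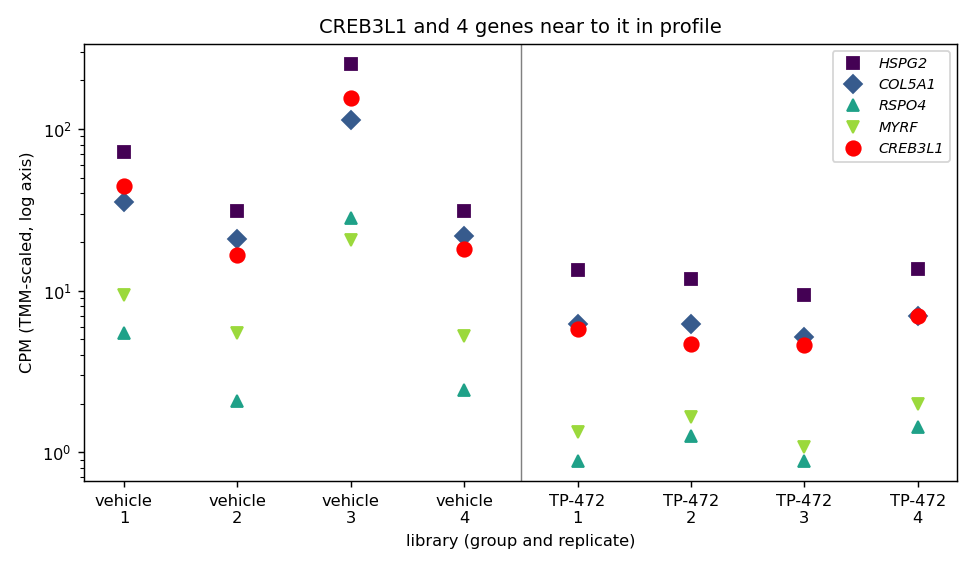
Level of CREB3L1 (red) and of 4 genes near to it in profile in each of the 8 libraries, in TMM-scaled CPM on a log axis. All 5 genes are highest in vehicle replicate 3, where HSPG2 reaches 253 CPM, and lower in each TP-472 library than in any vehicle library.

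SERPINH1 (ENSG00000149257.15, chromosome 11, 75562056 to 75572783, plus strand) encodes the collagen chaperone HSP47. Its level was 300, 344, 462 and 342 CPM in vehicle and 181, 190, 196 and 160 CPM with TP-472. The groups did not overlap, and the gap between them was wider than the range of the treated libraries. The mean went from 362 ± 69.6 to 182 ± 15.5 CPM (SD, n = 4), a log2 change of −0.996 ± 0.148 (SE) or 1.99-fold lower. Without vehicle replicate 3 the log2 change was −0.86 ± 0.08, 1.81-fold lower.

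The estimates of the lysyl hydroxylase genes differed in sign. PLOD1 (ENSG00000083444.17, chromosome 1, 11934205 to 11975538, plus strand) encodes lysyl hydroxylase 1, which acts on lysines of the collagen helix. Its level was 279, 286, 425 and 290 CPM in vehicle and 187, 192, 189 and 165 CPM with TP-472, without overlap. The log2 change was −0.81 ± 0.15 (SE), 1.75-fold lower, and −0.64 ± 0.07 without vehicle replicate 3, 1.56-fold lower, just past the 1.5-fold limit used for calls. PLOD2 (ENSG00000152952.12, chromosome 3, 146069440 to 146163653, minus strand) encodes lysyl hydroxylase 2, which modifies the telopeptides at the ends of the helix. Its level was 7.23, 8.94, 3.76 and 9.08 CPM in vehicle and 9.84, 11.4, 11.2 and 11.7 CPM with TP-472. All treated libraries were above all vehicle libraries, and vehicle replicate 3 was the lowest. The log2 change was 0.61 ± 0.25 (SE), and 0.39 ± 0.11 without vehicle replicate 3, and neither was called. PLOD3 (ENSG00000106397.12, chromosome 7, 101205977 to 101218420, minus strand) encodes lysyl hydroxylase 3, which also transfers sugars to collagen. It was at 46.6, 37.9, 69.9 and 39.2 CPM in vehicle and at 40.7, 39.5, 32.3 and 34.9 CPM with TP-472, so the groups overlapped. The log2 change was −0.39 ± 0.20 (SE), and −0.16 ± 0.10 without vehicle replicate 3, and neither was called.

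Within the lysyl hydroxylase family the shares per kilobase did not overlap between the groups for PLOD1 and PLOD2. PLOD1 made up 85.1% to 87.3% of the summed level per kb in vehicle and 80.2% to 83.2% with TP-472, while PLOD2 made up 0.531% to 1.90% and 2.95% to 3.96%. PLOD2 thus stayed a minor part of the family in all 8 libraries. These shares come from the same contrast as the choice of genes and are a description.

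Of the lysyl oxidase genes, LOXL2 was the most abundant per kilobase, with 80.1% to 82.1% of the family in vehicle and 84.9% to 87.0% with TP-472. LOXL2 (ENSG00000134013.16, chromosome 8, 23297189 to 23425328, minus strand) was at 67.9, 49.8, 123 and 51.1 CPM in vehicle and at 44.7, 46.9, 43.9 and 47.4 CPM with TP-472. Its groups did not overlap, but vehicle replicates 2 and 4 lay close to the treated libraries. The log2 change was −0.67 ± 0.27 (SE), which was not called. It became −0.30 ± 0.10 without vehicle replicate 3 and −0.185 with limma-voom and quality weights, and was called at −0.82 without vehicle replicate 2, at −0.81 without vehicle replicate 4 and at −0.66 with DESeq2.

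LOXL1 (ENSG00000129038.16, chromosome 15, 73925989 to 73952137, plus strand) is known for its part in elastic fibre upkeep in the uterus and other organs. It was at 5.49, 4.57, 17.1 and 4.78 CPM in vehicle and at 2.82, 2.65, 3.11 and 2.51 CPM with TP-472. Vehicle replicate 3 was 3.45-fold above the mean of the other vehicle libraries, and the groups did not overlap. The log2 change was −1.52 ± 0.43 (SE), 2.87-fold lower, and −0.84 ± 0.13 without vehicle replicate 3, 1.78-fold lower. It was −0.76 with quality weights. The call was lost without TP-472 replicate 1 (−1.54), 2 (−1.50), 3 (−1.58) or 4 (−1.48). LOXL3 (ENSG00000115318.12, chromosome 2, 74532414 to 74555690, minus strand) was at 2.605, 1.95, 1.998 and 1.97 CPM in vehicle and at 1.06, 1.24, 1.17 and 1.35 CPM with TP-472. Here vehicle replicate 1 was the highest, the groups did not overlap, and the log2 change was −0.82 ± 0.18 (SE) with and −0.85 ± 0.18 without vehicle replicate 3.

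LOX and LOXL4 did not pass the filter of more than 1 CPM in at least 4 libraries, and their counts are given for that reason. LOX (ENSG00000113083.14, chromosome 5, 122063195 to 122078360, minus strand) had 18, 13, 14 and 14 counts in vehicle and 42, 33, 37 and 50 with TP-472. All treated libraries were higher than all vehicle libraries, at 0.418 ± 0.0555 and 1.09 ± 0.166 CPM (SD, n = 4), and a fit without the filter gave a log2 change of 1.37 ± 0.31 (SE), 2.58-fold higher. Its share of the family per kilobase was 0.272% to 0.638% in vehicle and 1.78% to 2.47% with TP-472. LOXL4 (ENSG00000138131.4, chromosome 10, 98247690 to 98268250, minus strand) had 52, 39, 16 and 42 counts in vehicle and 22, 6, 8 and 16 with TP-472. The groups overlapped through vehicle replicate 3, and the log2 change of the fit without the filter was −1.61 ± 0.45 (SE). LOX was thus the only member of its family with an estimate above 0.

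Some of these genes share exon positions with a neighbour, so that reads may be split between them. The methods call the libraries strand-specific, the labels name another kit without mention of strand, and whether the counting used the strand is not given in the sources used here. LOX overlaps SRFBP1 on the opposite strand, which had 494 to 761 counts in vehicle and 1295 to 1530.5 with TP-472, far above those of LOX. LOXL3 overlaps HTRA2 and DOK1 and PLOD3 overlaps ZNHIT1, all on the opposite strand, and LOXL1 and LOXL4 overlap antisense genes. LOXL2 overlaps ENTPD4 on the same strand, with 1686 to 2167 counts in vehicle and 1087 to 1331 with TP-472. The part of these neighbours in the values of LOX, LOXL1, LOXL2, LOXL3, LOXL4 and PLOD3 was not tested.

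Among all 14073 genes tested with edgeR, 26.9% were called, at an adjusted p under 0.05 and a change over 1.5-fold, 12% higher and 14.9% lower with TP-472. Of the 10 crosslinking genes, 8 were tested. CREB3L1, SERPINH1, PLOD1, LOXL1 and LOXL3 were called lower, none was called higher, and LOXL2, PLOD2 and PLOD3 were not called. The rule for choosing the genes used this contrast, so nothing is read from the 5 calls against the 14.9%. The groups did not overlap for 6 genes in the lower and 1 in the higher direction, where 21.6% and 23.8% of all genes tested did not overlap in these directions, and 45.4% in either. The median log2 change of the 8 was −0.81, and −0.74 without vehicle replicate 3, beside −0.026 and 0 for all genes tested. Without vehicle replicate 3 the number called lower was again 5, beside 13.4% of all genes called lower and 25.5% called in either direction. Vehicle replicate 3 was the highest vehicle library for 6 of the 10 genes and the lowest for 2, beside 43.2% and 43.7% of all genes tested.

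**Figure D3:**
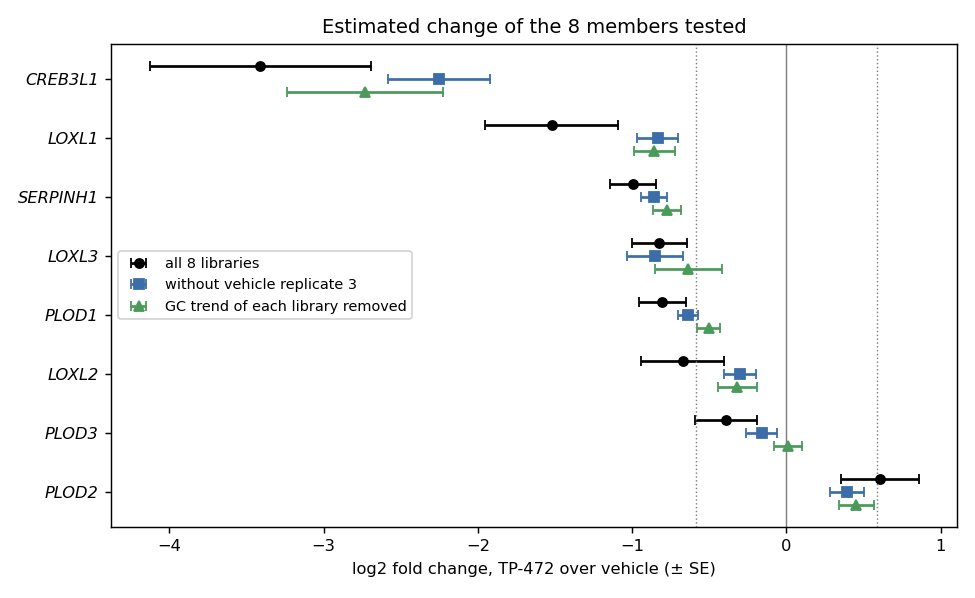
Log2 fold change of TP-472 over vehicle for the 8 genes tested, with bars for ± SE, from all 8 libraries (black), without vehicle replicate 3 (blue) and after removal of each library's trend with GC content (green). Dotted lines mark the 1.5-fold limit. CREB3L1 lies between −3.41 and −2.25 in the 3 fits, while PLOD3 moves from −0.39 to 0.01.

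Because vehicle replicate 3 had more counts in GC-rich genes, the change was also examined by the GC content of the longest transcript, known for 99.3% of the genes tested. Genes were divided into 4 equal groups by GC content. In the highest (56.2% to 74.5%) the median log2 change of all genes was −0.41, with 25.6% called lower and 6.16% higher. In the lowest (27.1% to 42%) it was 0.15, with 7.21% called lower and 13.4% higher. Without vehicle replicate 3 these medians were −0.11 and 0.004. Of the 10 crosslinking genes, 8 lay in the highest GC group, from LOXL3 at 56.4% to LOXL1 at 67.6%. The others were LOX at 39.6% and PLOD2 at 34.4%, the pair with higher levels after TP-472. After each library's trend with GC content was removed, CREB3L1 remained at −2.74 ± 0.51 (SE), LOXL1 at −0.86 ± 0.13, SERPINH1 at −0.77 ± 0.09 and LOXL3 at −0.64 ± 0.22, all called lower. PLOD1 at −0.50 ± 0.07 fell inside the 1.5-fold limit, LOXL2 was at −0.32 ± 0.12, PLOD2 at 0.45 ± 0.11 and PLOD3 at 0.01 ± 0.09. The median log2 change of the 8 genes in this fit was −0.57.

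**Figure D4:**
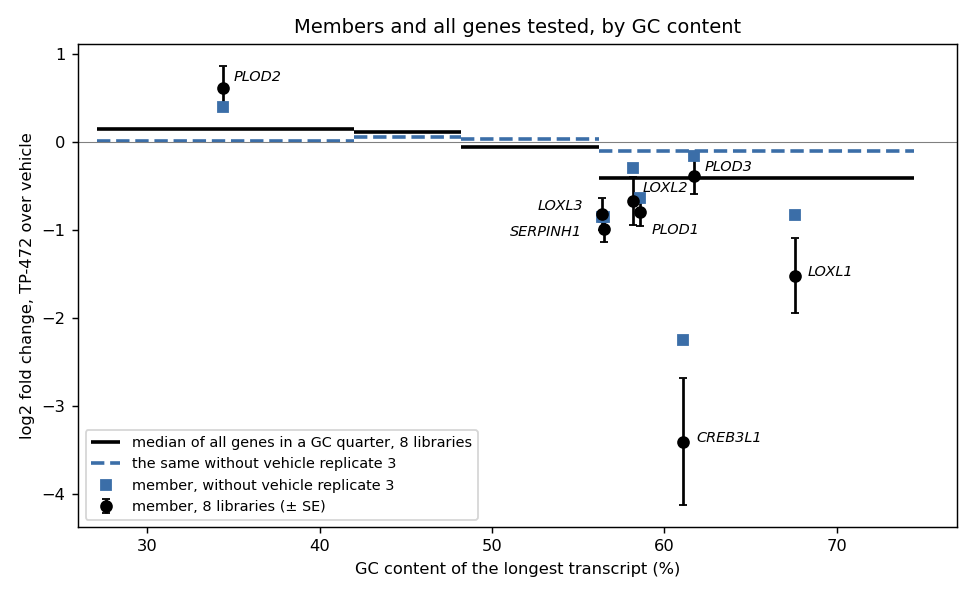
Log2 fold change of TP-472 over vehicle against the GC content of the longest transcript, for the 8 genes tested (points with ± SE for all libraries, squares without vehicle replicate 3). Horizontal lines give the median of all genes in each of 4 equal GC groups, which is −0.41 in the highest with all libraries (solid) and −0.11 without vehicle replicate 3 (dashed).

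The other genes of collagen synthesis were followed in 6 lists, with edgeR and Benjamini-Hochberg adjustment over all 14073 genes. Of the 16 genes that fold and hydroxylate procollagen, 4 were lower, none was higher and 12 were not called, with a median log2 change of −0.33. FKBP10, a prolyl isomerase that works with HSP47 and lysyl hydroxylase 2, was at 130, 130, 194 and 136 CPM in vehicle and at 70.6, 71.7, 70.7 and 61.2 CPM with TP-472, 2.15-fold lower (log2 change −1.10 ± 0.15 SE, adjusted p = 0.001). P3H3, a member of the prolyl 3-hydroxylase family that forms a complex with lysyl hydroxylase 1, changed by −1.34 ± 0.25 (adjusted p = 0.00417). CRTAP, a subunit of the prolyl 3-hydroxylase complex, changed by −0.67 ± 0.09 (adjusted p = 0.000807). P3H4, the partner of P3H3 in the complex with lysyl hydroxylase 1, changed by −0.67 ± 0.14 (adjusted p = 0.00708). Its change was under the 1.5-fold limit without vehicle replicate 3 (−0.53) and was −0.30 once the GC trend was removed. Without that library FKBP10 was at −0.94, P3H3 at −0.99 and CRTAP at −0.66, all called lower. The list's share of calls, 25%, was close to the 26.9% of all genes. All of its calls were lower, beside 14.9% lower and 12% higher among all genes.

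The next list holds fibrillar collagens, elastin, and matrix proteins that bind them or guide crosslinking. Of its 21 genes, 9 were below the filter and 12 were tested. Of those tested, 9 were lower, 1 was higher and 2 were not called, beside 14.9% lower and 12% higher among all genes. The 9 lower include FBN1, EFEMP2, SPARC and TNXB, which are not collagens. The median log2 change of the 12 was −1.38. The counts were the same without vehicle replicate 3, and the number called in either direction was 7 to 10 with single libraries left out, 7 without TP-472 replicate 2. COL1A2, a chain of type I collagen and one of the most abundant collagens here at 52.8 CPM per kb, was at 626, 516, 680 and 535 CPM in vehicle and at 102, 92.2, 103 and 98.3 CPM with TP-472, 5.97-fold lower (log2 change −2.58 ± 0.12 SE, adjusted p = 1.74e-05). COL3A1, the chain of type III collagen, changed by −1.62 ± 0.11 (adjusted p = 3.97e-05). COL5A1, a chain of type V collagen, which sets fibril width, changed by −2.96 ± 0.55 (adjusted p = 0.00406), by −2.08 without vehicle replicate 3, and by −1.88 with quality weights. The other chain of type I collagen, COL1A1, was far less abundant, at 9.25, 3.02, 21.9 and 2.58 CPM in vehicle and 2.07, 1.75, 1.30 and 2.09 CPM with TP-472. Its log2 change of −2.35 ± 0.65 (adjusted p = 0.0222) became −1.46 without vehicle replicate 3 and −0.75 with quality weights, which kept it called. Its call was lost with limma-voom (−1.82, adjusted p = 0.0674) and without any single TP-472 replicate, with values of −2.43 to −2.22. FN1, the gene of fibronectin, was the gene called higher, with a log2 change of 1.16 ± 0.21 (adjusted p = 0.00339), and is named after its value was seen. ELN, which encodes elastin, had no count in any vehicle library and did not exceed 0.0282 CPM with TP-472.

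The relatives of CREB3L1 and the proteases that release such factors from the membrane came next. All 9 genes were tested, 4 were lower, 1 was higher and 4 were not called, beside 14.9% lower and 12% higher among all genes, with a median log2 change of −0.57. CREB3L2, the closest relative of CREB3L1, was at 56.0, 30.3, 65.6 and 28.9 CPM in vehicle and at 15.9, 16.5, 16.2 and 26.5 CPM with TP-472. The groups did not overlap, although vehicle replicates 2 and 4 lay close to TP-472 replicate 4 (log2 change −1.27 ± 0.30 SE, adjusted p = 0.0125). CREB3L3, best known from liver, was at or below 4.26 CPM and changed by −2.77 ± 0.51 (adjusted p = 0.00375). With TP-472 it was at 0.169 to 0.502 CPM, so it passed the filter only through the vehicle group. Nothing is read from its call, which is among the 4 lower. ATF6B changed by −1.11 ± 0.27 (adjusted p = 0.0139) and CREB3L4 by −0.88 ± 0.14 (adjusted p = 0.00171). Without vehicle replicate 3 CREB3L2 was at −1.03, ATF6B at −0.72 and CREB3L4 at −0.88, all called lower. CREB3 itself was called higher, at 0.75 ± 0.21 (adjusted p = 0.0237), and is named after its value was seen. Its change was under the 1.5-fold limit without vehicle replicate 3. The proteases MBTPS1 (−0.57) and MBTPS2 (−0.54) were not called, and MBTPS2 was called lower without vehicle replicate 3 (−0.62).

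Propeptides are cleaved from procollagen after secretion, and BMP1 also activates LOX. Of 9 genes of this step, 6 were tested, with 4 lower and 2 higher, beside 14.9% and 12% of all genes, and a median log2 change of −0.93. Without vehicle replicate 3, 2 were lower and 2 higher, and with the GC trend removed 1 was lower and 2 were higher. TLL2, among the 2 higher in each of these fits, passed the filter only through the TP-472 group. Nothing is read from its call. ADAMTS2, which removes the amino-terminal propeptide, changed by −1.38 ± 0.27 (SE, adjusted p = 0.00517), and PCOLCE2, an enhancer of carboxy-terminal cleavage, by 1.05 ± 0.25 (adjusted p = 0.0124). In the fit without vehicle replicate 3 ADAMTS2 was at −1.03 and PCOLCE2 at 0.85, both still called. PCOLCE at −0.96 ± 0.33 (adjusted p = 0.0492) and FURIN at −1.003 ± 0.34 (adjusted p = 0.0453) were near the threshold. Without vehicle replicate 3 they were at −0.53 and −0.48, under the 1.5-fold limit. Without vehicle replicate 1 or any single TP-472 replicate their adjusted p rose above 0.05, up to 0.128 for PCOLCE and 0.104 for FURIN. In these fits the log2 changes stayed about as large, at −1.04 to −0.85 for PCOLCE and −1.12 to −0.99 for FURIN.

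Of 15 genes that carry procollagen out of the endoplasmic reticulum, all were tested and 1 was called (6.67%, beside 26.9% of all genes). This was SEC24D, a COPII coat component, with a log2 change of −0.71 ± 0.10 (SE, adjusted p = 0.00118). The median log2 change of this list was 0.04, and −0.058 without vehicle replicate 3. Of 9 other crosslinking and copper supply genes, 7 were tested, 2 were higher, 1 was lower and 4 were not called, beside 12% higher and 14.9% lower among all genes. TGM2, the tissue transglutaminase, which joins glutamine to lysine side chains, was at 93.7, 86.4, 147 and 90.2 CPM in vehicle and at 391, 398, 371 and 406 CPM with TP-472. It was 3.76-fold higher, with the groups far apart and a sign opposite to the estimates of 4 of the 5 lysyl oxidase genes (log2 change 1.91 ± 0.18 SE, adjusted p = 0.000186). PXDN, a peroxidase that crosslinks type IV collagen, changed by −1.01 ± 0.22 (adjusted p = 0.00821). Without vehicle replicate 3 PXDN was at −0.76 and TGM2 at 2.12, both still called. GLRX, which encodes a glutaredoxin, changed by 0.61 ± 0.19 (adjusted p = 0.0352). Its call was lost without vehicle replicate 1 (0.52), vehicle replicate 3 (0.49) or any single TP-472 replicate. Without single TP-472 replicates its log2 change stayed at 0.59 to 0.64, and the edgeR adjusted p was 0.0707 to 0.0901.

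**Figure D5:**
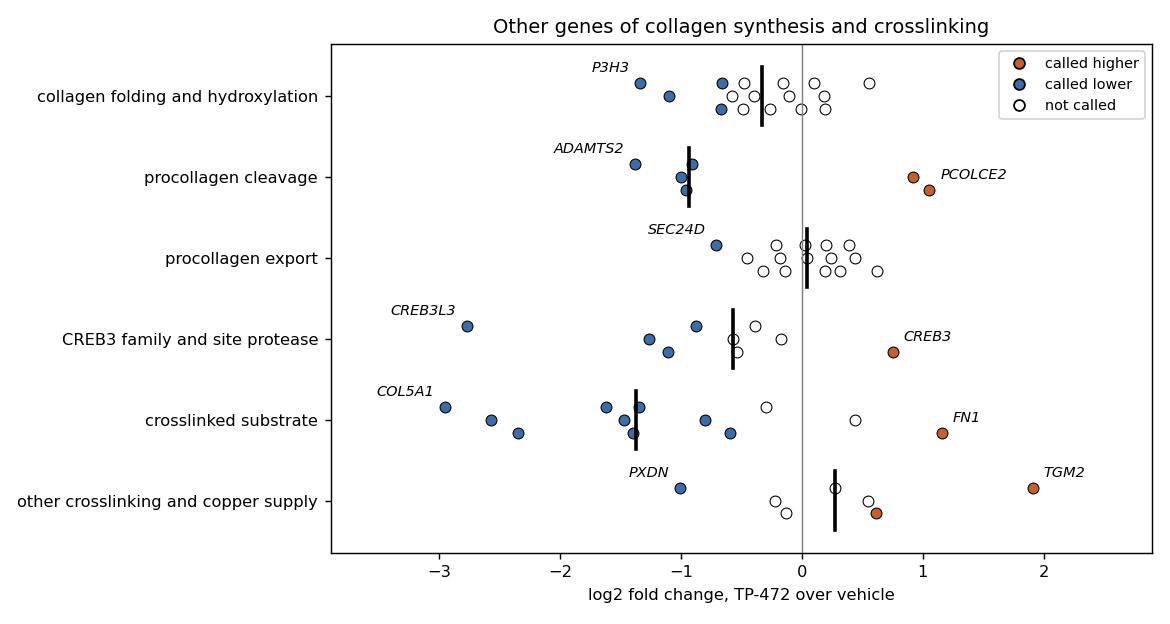
Log2 fold change of TP-472 over vehicle for each tested gene of the 6 lists (points, shifted vertically for legibility). Black lines give the median of each list, and colors the edgeR call over all genes tested. The list of crosslinked substrates, which also holds proteins that bind them or guide crosslinking, has the lowest median (−1.38). TGM2 has the highest value shown (1.91).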

How the data were processed

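The study's methods describe strand-specific libraries from total RNA, while the labels name a TruSeq RNA kit without mention of strand. The reads were quantified by the authors with salmon 1.4.0, and tximport summed the transcript estimates by gene (GENCODE release 34). The deposited values are therefore estimated counts, not scaled or filtered, and 13.8% to 23.2% of a library's values were not whole. They were rounded here. A gene was kept if it exceeded 1 CPM in 4 or more of the 8 libraries, libraries were scaled by TMM, and groups were compared by quasi-likelihood (edgeR 4.0.16, R 4.3.3) with Benjamini-Hochberg adjustment. The thresholds, adjusted p under 0.05 and change over 1.5-fold, are those of the study. P-values measure only the spread between these samples. The methods speak of biological replicates for all experiments, but no source describes those of the RNA-seq. Each library held at least 32574716 counts, and the part of counting error in this spread was not measured.

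The 10 genes and the lists were chosen with earlier results of these data known. Named were the 10 genes, in each list the called genes with the 4 largest changes among those without overlap between groups, and the 5 genes nearest to CREB3L1. The values of 1 gene are not reported here, although counts include it. Coordinates, exon lengths and transcript GC content come from GENCODE release 29 (GRCh38), with 58107 genes matched by identifier. No library was a copy of another (lowest mean chi-square between a pair 12.8, where copies would be near 1). On simulated data with 200 of 14073 genes changed 3-fold, 183 were called, with 15 calls among the others. Alternatives were DESeq2 1.42.0, limma-voom (limma 3.58.1) with and without quality weights, other scalings, filters and thresholds, unrounded counts, replicate number as a block, removal of the GC trend, and each library left out. Promoters of 300 bases are from RefSeq.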

Additional observations from a re-analysis of the deposited data

Results flagged for a closer look

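Among 68 groups of 4 libraries, formed by each named gene in vehicle or with TP-472, 16 held a library farther from the others than Dixon's 95% limit allows. A rate of about 1 group in 20 holds only for independent groups that were not selected. These groups share the same libraries, many of their genes were chosen from this contrast, and COL5A1 and RSPO4 were picked for likeness to CREB3L1. The 16 are therefore a description and are not set against that rate. In 10 of the 16 it was vehicle replicate 3, which was the highest vehicle library for LOXL1 (17.1 CPM), PLOD1 (425), P3H3 (102), FKBP10 (194), PCOLCE (7.96), FURIN (31.0), ATF6B (53.9), COL5A1 (113), TGM2 (147) and RSPO4 (28.1). TP-472 replicate 4 stood apart in 5 groups, lowest for PLOD1 (165), FKBP10 (61.2) and COL3A1 (134) and highest for SEC24D (43.2) and CREB3L2 (26.5). Vehicle replicate 1 was the highest for LOXL3 (2.6). CREB3L1 itself did not pass this limit, since vehicle replicate 1 (44.5 CPM) also lay above vehicle replicates 2 and 4. Vehicle replicate 3 had the highest share of counts in GC-rich genes (34.5%) and TP-472 replicate 4 the lowest (23.0%), and the part of this in the values was not tested gene by gene.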

How the results depend on the processing

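No called gene given here changed its direction under the alternatives run for it. For SPARC, EFEMP2, COL5A2, BMP1, TLL2, CREB3, FN1 and the cell markers, these were only the fits without vehicle replicate 3 and with the GC trend removed. PLOD3, which was not called, went from −0.39 to 0.01 with the GC trend removed. Calls among the 10 genes were lower in 4 to 6 when single libraries were left out, in 3 with a filter of over 5 CPM and in 2 with a limit of 2-fold, and 1 was called higher with DESeq2, beside 7 lower, or without a filter. All genes called came to 2690 to 4223 with single libraries left out (1303 to 1824 higher, 1387 to 2399 lower), and to 1704 (639 higher, 1065 lower) with the 2-fold limit. DESeq2 called 5546 genes, 2666 higher and 2880 lower. Called genes of procollagen export numbered 2 with DESeq2, limma-voom, total count scaling, the stricter filter or the GC trend removed, 1 to 2 with single libraries left out, 4 with no fold limit and 0 at 2-fold. Procollagen cleavage gave 3 with the stricter filter, the GC trend removed or 2-fold, folding genes 8 with no fold limit and 2 at 2-fold, and the CREB3 list 3 at 2-fold. Of the genes nearest to CREB3L1, 2 were shared without vehicle replicate 3 and 0 after scaling to unit variance. The added motifs left the number of the 9 promoters with any match at 6.

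Libraries of the same number did not deviate together (correlations −0.055, 0.116, −0.171 and −0.177), so the numbers were not taken to pair them. With the replicate block 3055 genes were called, 1500 higher and 1555 lower, and the 5 calls among the crosslinking genes stayed in number. COL1A1 (−1.80), PCOLCE (−0.84), FURIN (−0.835) and GLRX (0.66) were not called with it, each through an adjusted p above 0.05.

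LOX and LOXL4 had 6 to 52 counts per library, so counting error adds to the spread between libraries.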

Other observations

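The following genes were chosen after their values were seen. SPARC, a matrix protein that binds collagen, was at 538, 574, 574 and 575 CPM in vehicle and at 319, 334, 331 and 315 CPM with TP-472 (log2 change −0.80 ± 0.09 SE, edgeR adjusted p = 0.000432). EFEMP2, or fibulin 4, which brings LOX to its elastin substrate, was at 23.8, 26.5, 33.8 and 26.2 CPM in vehicle and at 11.5, 10.3, 9.27 and 8.51 CPM with TP-472 (log2 change −1.47 ± 0.15, adjusted p = 0.000279). COL5A2 had the highest level per kilobase of the listed collagens, 171 CPM per kb in vehicle and 66.9 with TP-472 (log2 change −1.35 ± 0.11, adjusted p = 0.000107). BMP1 changed by −0.91 ± 0.20 (adjusted p = 0.00946), which fell within the 1.5-fold limit once the GC trend was removed. Its homolog TLL2 changed by 0.92 ± 0.22 (adjusted p = 0.0123). TLL2 was at 0.719 to 1.21 CPM in vehicle and at 1.49 to 2.22 CPM with TP-472. It passed the filter only through the TP-472 group, so nothing is read from its call. P4HA2, a catalytic subunit of the collagen prolyl 4-hydroxylase, changed by −0.58 ± 0.12 (adjusted p = 0.00595), under the 1.5-fold limit, and was called at −0.66 without vehicle replicate 3.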
